A study of Mus musculus with 8 samples.

Results

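The 78 protein-coding genes described here encode aminoacyl-tRNA synthetases, their scaffold proteins, and the factors that start and elongate protein chains. They were chosen by symbol, with earlier results of these data known, from the 8278 genes of the table of *Hdac3* KO against EV MCECs. By role they were 19 cytosolic synthetases, 10 mitochondrial synthetases (symbols ending in 2), 3 scaffold proteins, 41 initiation factor genes and 5 elongation factors. The initiation factor genes are all members with an *Eif* symbol, whatever their function. They include inhibitors of eIF4E as well as *Eif5a* and *Eif4a3*. MCECs are a cell line from mouse cardiac endothelium. *Hdac3* KO MCECs carried a lentiviral CRISPR/Cas9 construct with a guide against *Hdac3*, a class I histone deacetylase, and EV MCECs were transduced with the empty vector lentivirus. Bulk RNA-Seq was done on 4 libraries of each group. The cells were stable transduced cultures with no age or time course. Nothing in the labels says that the 4 libraries of a group came from separate transductions, so p-values measure the spread between these libraries. The paper's reporting summary states that its in vitro studies typically used technical replicates.

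Aminoacyl-tRNA synthetases join each amino acid to its tRNA. The cytosolic enzymes supply the ribosomes that read nuclear mRNAs, and the mitochondrial enzymes supply the ribosomes inside mitochondria. The split used here follows the symbols. No separate mitochondrial gene for glycine or lysine is among the annotated members, so *Gars* and *Kars*, counted as cytosolic, may serve both compartments. Initiation factors bring the initiator tRNA, the mRNA cap and the small ribosomal subunit together, and elongation factors deliver charged tRNAs and move the ribosome along. When amino acids are short or proteins misfold, phosphorylation of eIF2 lowers initiation and raises translation of the transcription factor ATF4, whose known targets include many synthetase genes.

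The libraries held 15775327 to 21262575 reads in EV MCECs and 19356714 to 22255684 in *Hdac3* KO MCECs, and the table held 84.3% to 85.9% of them. The table lists only genes that differed in the authors' own comparison, so 96.7% of its genes passed an adjusted p under 0.01 in edgeR's quasi-likelihood test. What is informative is therefore direction and size. Of all genes of the table, 47.1% passed as higher and 49.6% as lower in *Hdac3* KO MCECs, and the median log2 fold change was 0.06. That balance depends on the scaling: with library totals alone, without TMM factors, 2671 genes (32.3%) passed as higher and 4120 (49.8%) as lower. The targeted gene, *Hdac3*, had 1943, 2077, 2064 and 2147 normalized counts in EV MCECs and 1558, 1465, 1496 and 1531 in *Hdac3* KO MCECs, a fold of 0.734, so its RNA was lower but present in each KO library. The paper reports a successful knockout in MCECs, checked by western blot, and the RNA fold does not measure the loss of protein. Of 19 endothelial markers 8 were in the table, 7 of them lower in *Hdac3* KO MCECs. The 1 higher was *Pecam1*, with 0 to 1.19 normalized counts per EV library and 1.88 to 8.23 per KO library. Its reads were at 0 in some EV libraries, and no other endothelial marker in the table was at 0 there. The most abundant of the 8, *Cd34*, averaged 4645 in EV MCECs, while the fibroblast genes *Col3a1* and *Col1a1* averaged 77632 and 41584. The 8 endothelial markers summed to 7291 to 7571 normalized counts per EV library and 5792 to 5956 per KO library. Among 15 fibroblast and mural markers 7 were listed and 6 of these were lower, with sums of 130077 to 137065 in EV and 118152 to 121512 in *Hdac3* KO MCECs. *Col3a1* and *Col1a1* hold most of that sum, while the median log2 fold change of the 7 was -1.42, 5 were lower by more than 0.5 on the log2 scale, and *Pdgfrb*, *Tagln* and *Acta2* had folds of 0.205, 0.211 and 0.251. Of 11 cardiomyocyte markers 2 were listed, with sums of 59.3 to 82.5 and 35.7 to 46.1, and of 10 haematopoietic markers 2, with sums of 127.7 to 136.6 and 283.1 to 320.1. The part of these markers in the results below was not tested, and fewer cells of a type and less RNA per cell cannot be told apart in bulk samples.

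Of the 78 genes, 72 were higher and 6 lower in *Hdac3* KO MCECs at an adjusted p under 0.01, a share of 92.3% higher beside 47.1% over the whole table. Their median log2 fold change was 0.44. The largest adjusted p among them was 0.00691 by edgeR's quasi-likelihood test. The 33 members with a log2 fold change over 0.5 stood beside 15.1% of all genes past that size, and 1 member was past a log2 fold change of 1, beside 4.43% of all genes. The groups did not overlap for 77 of the 78, with 91.1% over the whole table. Since genes with more reads leaned upward, the 65 members that averaged 1000 or more normalized counts can be set beside the 3649 such genes of the table: 64 of the 65 were higher and 1 lower, with 60.7% of the 3649 higher and a median log2 fold change of 0.46 against 0.16.

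**Figure D1:**
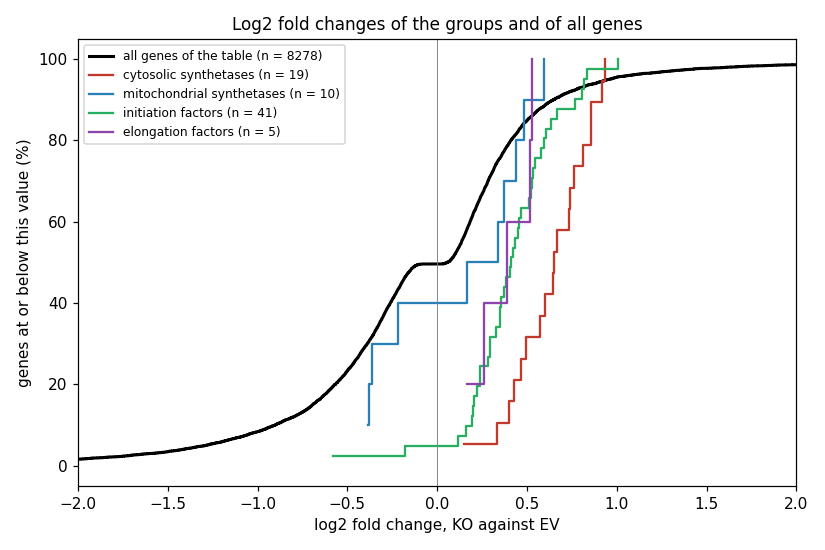
Cumulative share of genes (y axis, percent) at or below each log2 fold change of KO against EV (x axis) for all 8278 genes of the table and for 4 groups; the x axis is limited to the range around 0. The line of the 19 cytosolic synthetases lies right of the line of all genes up to the step at 0.86, while the 10 mitochondrial synthetases lie on both sides of 0.

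A part of the promoter sequences is shown because several of these genes hold the same short letters near their start. ATF4 binds DNA at C/EBP-ATF response elements, and the letters TGATGNAA, in which N is any base, are the core of that element. They were searched on both strands, where the reverse strand reads TTNCATCA, in the 300 bases that run from 250 before to 50 after each RefSeq start (GRCm38.p6, the mm10 build). The letters were found in 3.97% of all 32851 windows, in 4.51% of the 27025 genes with a promoter, and in 2.66% of the 6456 table genes matched to one. A promoter was matched for 59 of the 78 members, and 6 of these held the letters. They were 5 of the 12 matched cytosolic synthetases (*Aars*, *Gars*, *Iars*, *Tars* and *Yars*) and, of 32 matched initiation factors, *Eif2s3x*. None of the 9 matched mitochondrial synthetases, 3 scaffold genes and 3 matched elongation factors held them. The unmatched synthetases were *Hars*, *Rars*, *Vars*, *Nars*, *Cars*, *Lars*, *Wars* and *Pars2*. Each line gives, for 1 match per gene, 30 bases in the direction of transcription with the matched letters in capitals.
Aars: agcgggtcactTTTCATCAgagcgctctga
Gars: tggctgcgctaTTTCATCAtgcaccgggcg
Iars: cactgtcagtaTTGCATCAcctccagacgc
Tars: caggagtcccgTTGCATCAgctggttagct
Yars: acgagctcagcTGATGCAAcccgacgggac
Eif2s3x: ttcgccatcatTTTCATCAggtctatgccg

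The *Aars* window lies at chr8:111033840-111033869 on the plus strand, with the first matched base at 10 from the start. On the plus strand too, the *Gars* window lies at chr6:55037960-55037989 with its match at -30, the *Iars* window at chr13:49682126-49682155 with its match at 8, and the *Yars* window at chr4:129189895-129189924 with its match at 4. The *Tars* window lies at chr15:11399655-11399684 on the minus strand with its match at -15, and the *Eif2s3x* window at chrX:94212729-94212758 on the minus strand with its match at -96. For comparison, 11 of 29 matched genes of the list of ATF4 and its known targets held the letters, and the same letters stand in the promoters of *Asns* and *Chac1*, shown next.
Asns: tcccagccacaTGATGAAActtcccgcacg
Chac1: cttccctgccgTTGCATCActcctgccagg

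The match in *Asns*, which encodes asparagine synthetase, lies in chr6:7693214-7693243 on the minus strand, and that in *Chac1*, a glutathione-degrading enzyme, in chr2:119351038-119351067 on the plus strand. A match describes letters in a window and is not a measurement of binding.

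Every one of the 19 cytosolic synthetases was higher in *Hdac3* KO MCECs, beside 47.1% of all genes. Their log2 fold changes ran from 0.15 for *Dars* to 0.94 for *Wars*, and the median was 0.65. This is 0.60 above the median of all genes. In 13 of the 19 the log2 fold change was over 0.5, beside 15.1% of all genes. In all 19 the 4 KO libraries lay above the 4 EV libraries. Over the whole table the groups did not overlap, in either direction, for 91.1% of genes. Another 2 annotated cytosolic genes, *Qars* and *Tarsl2*, were not in the table and were not analysed. Their mean RNA levels per length in EV MCECs ran from 23.7 FPKM for *Farsa* to 140.1 FPKM for *Gars*.

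*Wars*, the tryptophanyl-tRNA synthetase (chr12:108860030-108894174), had 1917, 1967, 1960 and 2032 normalized counts in EV MCECs and 3777, 3796, 3739 and 3773 in *Hdac3* KO MCECs. The lowest KO library was far above the highest EV library, and the KO libraries varied little among themselves. Its log2 fold change was 0.94 ± 0.03 (SE), a fold of 1.91, with an edgeR adjusted p of 5.2e-25. *Gars*, which charges glycine tRNAs (chr6:55038001-55079504), had 6295, 6195, 6309 and 6368 normalized counts in EV MCECs and 11919, 11437, 11950 and 12340 in *Hdac3* KO MCECs. Its groups were likewise well separated. The log2 fold change was 0.92 ± 0.03 (SE), and its level per length rose from 140.1 ± 1.74 to 244.4 ± 7.17 FPKM (SD, n = 4).

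*Iars*, the isoleucyl-tRNA synthetase (chr13:49682100-49734267), had 3082, 3287, 3090 and 3193 normalized counts in EV MCECs and 5689, 5827, 5625 and 5817 in *Hdac3* KO MCECs. Its log2 fold change was 0.86 ± 0.03 (SE). *Aars* (chr8:111033144-111057664), the alanyl-tRNA synthetase, was the cytosolic synthetase with the most reads, with 12390, 12888, 12471 and 12937 normalized counts in EV MCECs and 23367, 22906, 22572 and 23058 in *Hdac3* KO MCECs. Every KO library had more *Aars* reads than any EV library, and the log2 fold change was 0.86 ± 0.02 (SE). Of the 50-base stretches of *Aars* transcripts, 13.5% are also found in transcripts of *Exosc6* on the same strand, so reads there could have been assigned to either gene.

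*Lars*, the leucyl-tRNA synthetase, had 4092, 4132, 3957 and 4226 normalized counts in EV MCECs and 7321, 6974, 7275 and 7292 in *Hdac3* KO MCECs, and the log2 fold change was 0.81 ± 0.03 (SE). The second KO library lay below the other three, and all were above the EV libraries. *Eprs*, the joint glutamyl- and prolyl-tRNA synthetase (chr1:185363095-185428355), had 6407, 6618, 6112 and 6371 normalized counts in EV MCECs and 10612, 10961, 10716 and 10985 in *Hdac3* KO MCECs, giving a log2 fold change of 0.76 ± 0.03 (SE). For each of these 6 genes the two-sided exact permutation test gave p = 0.0286. With 70 ways to split the libraries, this is the smallest value the test can give. Any gene whose groups do not overlap gets this value, and 77 members had it. It therefore adds nothing to the absence of overlap and does not set these 6 genes apart.

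The other 13 cytosolic synthetases formed a graded series. *Cars*, *Nars*, *Vars*, *Sars*, *Yars* and *Rars* had log2 fold changes of 0.74, 0.73, 0.67, 0.65, 0.65 and 0.60. *Tars*, *Farsb*, *Kars*, *Farsa*, *Mars* and *Hars* followed with 0.57, 0.50, 0.47, 0.43, 0.40 and 0.33. The SE of a gene lay between 0.02 and 0.04. Differences between these genes were not tested. *Farsa* and *Farsb* encode the subunits of 1 enzyme, the phenylalanyl-tRNA synthetase, and their estimates of 0.43 ± 0.03 and 0.50 ± 0.04 (SE) lay close together. The smallest change was that of *Dars*, the aspartyl-tRNA synthetase, with 2194, 2033, 2052 and 1995 normalized counts in EV MCECs and 2344, 2198, 2328 and 2302 in *Hdac3* KO MCECs. Its groups were separated by a narrow gap, and its log2 fold change of 0.15 lost its call when libraries were scaled by their totals alone, with 0.03.

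**Figure D2:**
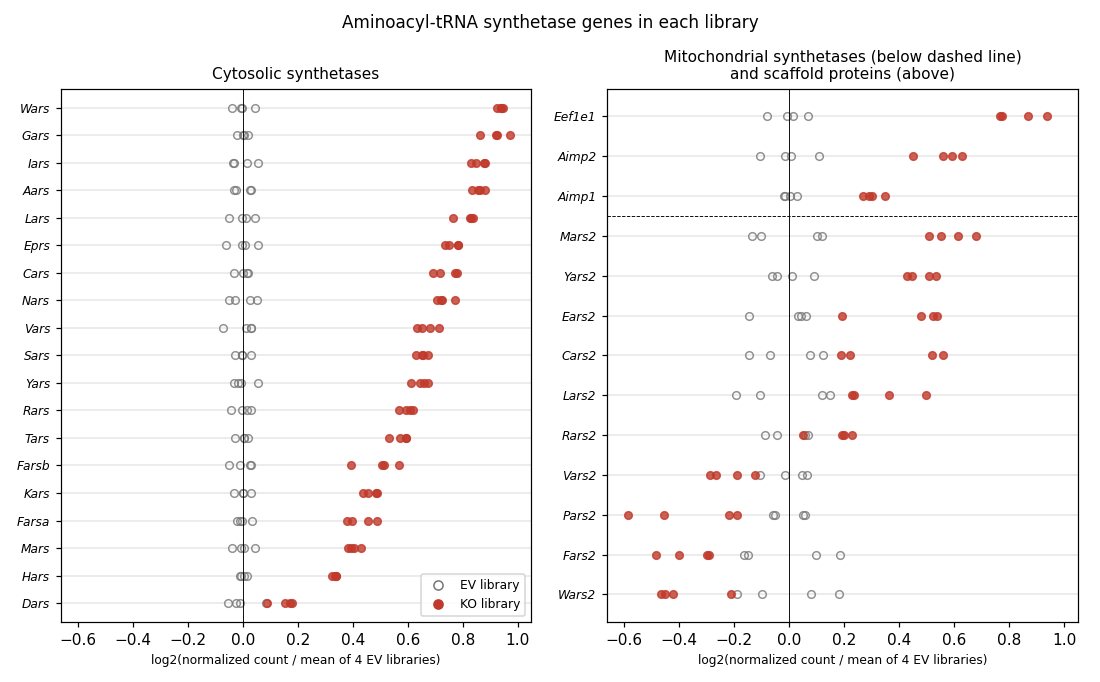
Log2 of the normalized count over the mean of the 4 EV libraries (x axis) for each synthetase and scaffold gene (y axis), with open circles for EV and filled circles for KO libraries. All KO points of the 19 cytosolic synthetases lie right of their EV points; 4 mitochondrial synthetases lie to the left and *Rars2* overlaps.

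In cells, 8 of the cytosolic synthetase genes encode enzymes held with 3 non-enzymatic scaffold proteins in the multisynthetase complex, and 7 of them were in the table. These 7 had a median log2 fold change of 0.60 and the other 12 cytosolic synthetases one of 0.66. The 3 scaffold genes were all higher, beside 47.1% of all genes. *Eef1e1*, also called AIMP3, had 465, 491, 442 and 473 normalized counts in EV MCECs and 801, 796, 854 and 896 in *Hdac3* KO MCECs. Its log2 fold change was 0.84 ± 0.05 (SE). *Aimp2* had 831, 817, 768 and 891 normalized counts in EV MCECs and 1246, 1130, 1280 and 1218 in *Hdac3* KO MCECs, for a log2 fold change of 0.56 ± 0.05 (SE). *Aimp2* and *Eif2ak1* share 26.6% of the 50-base stretches of *Aimp2* on opposite strands, and the counting was not stated to use strand. *Aimp1* had 1558, 1561, 1607 and 1581 normalized counts in EV MCECs and 1929, 2006, 1898 and 1945 in *Hdac3* KO MCECs, and the log2 fold change was 0.30 ± 0.03 (SE).

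Of the 10 mitochondrial synthetases in the table, 6 were higher and 4 lower in *Hdac3* KO MCECs, beside 47.1% higher and 49.6% lower in the whole table. Their log2 fold changes had a median of 0.25, and 1 was past 0.5, beside 15.1% of all genes. Under library totals without TMM 4 were higher and 4 lower, with a median of 0.14, beside 32.3% and 49.8% of all genes under that scaling. Without *Lars2* 5 of the 9 were higher, with a median of 0.17. Among the 3538 genes of the table with a mean of 100 to 1000 normalized counts, 35.4% were higher and the median was -0.28. A further 7 annotated mitochondrial genes were not in the table and were not analysed. Apart from *Lars2*, these genes had 121 to 534 normalized counts on average in EV MCECs, so their SE of 0.05 to 0.10 was larger than that of the cytosolic enzymes. The difference between the cytosolic and mitochondrial genes was not tested.

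*Mars2*, the mitochondrial methionyl-tRNA synthetase, had 323, 385, 380 and 330 normalized counts in EV MCECs and 504, 542, 568 and 520 in *Hdac3* KO MCECs, giving a log2 fold change of 0.59 ± 0.06 (SE). *Yars2*, for tyrosine, had 475, 452, 503 and 457 normalized counts in EV MCECs and 634, 683, 642 and 671 in *Hdac3* KO MCECs, for a log2 fold change of 0.48 ± 0.05 (SE). Both were clear of overlap by more than 100 counts. *Ears2*, for glutamate, had 109, 124, 123 and 126 normalized counts in EV MCECs and 138, 168, 175 and 173 in *Hdac3* KO MCECs, and the log2 fold change was 0.44 ± 0.10 (SE), with the lowest library of each group standing away from the other three.

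*Wars2*, the mitochondrial tryptophanyl-tRNA synthetase, had 261, 314, 337 and 278 normalized counts in EV MCECs and 222, 257, 216 and 218 in *Hdac3* KO MCECs. The second KO library came within a few counts of the lowest EV library. Its log2 fold change was -0.38 ± 0.08 (SE), opposite in sign to that of cytosolic *Wars*. *Fars2*, for phenylalanine, had 211, 209, 251 and 266 normalized counts in EV MCECs and 190, 177, 168 and 191 in *Hdac3* KO MCECs, giving a log2 fold change of -0.38 ± 0.09 (SE). *Pars2*, for proline, had 240, 241, 259 and 260 normalized counts in EV MCECs and 219, 182, 167 and 215 in *Hdac3* KO MCECs, for a log2 fold change of -0.36 ± 0.09 (SE). In both, all KO libraries were lower than any EV library.

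*Vars2*, for valine, had 528, 552, 496 and 559 normalized counts in EV MCECs and 437, 468, 443 and 489 in *Hdac3* KO MCECs, and the log2 fold change was -0.22 ± 0.06 (SE). Its sign turned to 0.04 after a correction for GC content and gene length, and 6.45% of its 50-base stretches lie in an antisense transcript. *Rars2*, for arginine, was the one member whose groups overlapped, with 420 to 468 normalized counts in EV MCECs and 462 to 523 in *Hdac3* KO MCECs. Its log2 fold change was 0.17 ± 0.06 (SE), and its two-sided exact permutation p was 0.0857. Its call was lost without EV library 2 or 3 or KO library 1, 3 or 4, where its log2 fold change was 0.14 to 0.16. *Cars2*, for cysteine, had a log2 fold change of 0.37 ± 0.09 (SE), and its call was lost under library totals alone, with 0.26.

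*Lars2*, the mitochondrial leucyl-tRNA synthetase (chr9:123366940-123462664), stood apart from the other mitochondrial genes by its level. Whether reads of another transcript were assigned to it could not be settled from the deposited table, so its level, its fold change and its share of the mitochondrial sum carry that doubt. It had 307.7 ± 35.7 FPKM in EV MCECs (SD, n = 4), while the next mitochondrial synthetase, *Rars2*, had 12.7 ± 0.673. Its normalized counts were 24408, 24864, 20872 and 19635 in EV MCECs and 26315, 31665, 28863 and 26430 in *Hdac3* KO MCECs, without overlap. Its log2 fold change was 0.34 ± 0.05 (SE), an error like the 0.05 of *Yars2*, which has far fewer counts.

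The summed level of the 19 cytosolic synthetases was 1288, 1293, 1284 and 1297 FPKM in the EV libraries and 1905, 1877, 1898 and 1915 in the KO libraries, a ratio of means of 1.47. Their share of all reads rose from 0.412% ± 0.00305 to 0.62% ± 0.00465 (SD, n = 4). No KO library came near an EV library. The 10 mitochondrial synthetases summed to 357.6 ± 34.5 and 407.5 ± 31.2 FPKM (SD, n = 4), and their groups overlapped in FPKM, with 320 to 388 and 383 to 449. On the TMM scale of the fold changes they did not overlap, with 1153 to 1417 reads per 1000000 in EV and 1503 to 1778 in *Hdac3* KO MCECs, a ratio of 1.24. Without *Lars2* the other 9 summed to 49.9 ± 1.3 FPKM in EV and 49.6 ± 1.4 in *Hdac3* KO MCECs, a ratio of 0.995. On that TMM scale the 9 genes had 147.2 ± 3.27 reads per 1000000 in EV and 160.8 ± 3.17 in *Hdac3* KO MCECs (SD, n = 4), a ratio of 1.09 with no overlap, so the direction of this sum depends on the scaling.

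**Figure D3:**
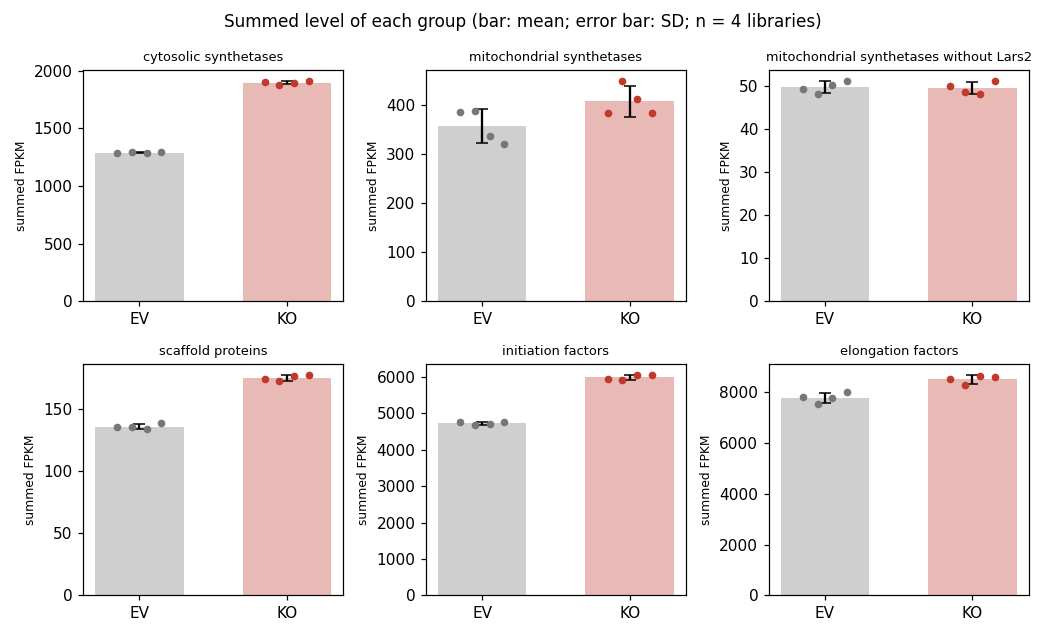
Summed FPKM (y axis, from 0) of each group in EV and KO libraries; bars are means, error bars SD, points the 4 libraries. The cytosolic synthetases rise from 1290 to 1898 FPKM with no overlap, and the mitochondrial synthetases without *Lars2* have 49.9 and 49.6 FPKM, a sum that is higher in KO on the TMM scale (ratio 1.09).

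Of the 41 initiation factor genes 39 were higher and 2 lower in *Hdac3* KO MCECs, beside 47.1% and 49.6% of all genes. These shares also stand beside the counts by role below. The log2 fold changes of the 41 genes had a median of 0.41. Their summed level was 4736 ± 39.3 FPKM in EV and 5994 ± 65.7 FPKM in *Hdac3* KO MCECs (SD, n = 4), a ratio of 1.27. The largest change of all 78 members was that of *Eif4ebp1* (chr8:27260327-27275656). Its product binds the cap-binding protein eIF4E and holds it away from initiation until mTOR phosphorylates it. *Eif4ebp1* had 2686, 2604, 2581 and 2730 normalized counts in EV MCECs and 5318, 5248, 5339 and 5417 in *Hdac3* KO MCECs. Every KO library was far above every EV library, with a fold of 2.01, a log2 fold change of 1.01 ± 0.03 (SE) and an edgeR adjusted p of 2e-26. The other inhibitor in the table, *Eif4enif1*, which carries eIF4E into the nucleus, had 1756, 1702, 1688 and 1703 normalized counts in EV MCECs and 1975, 1908, 1996 and 1941 in *Hdac3* KO MCECs, giving a log2 fold change of 0.19 ± 0.03 (SE), a call lost under library totals alone, with 0.07.

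eIF2 carries the initiator tRNA, and its 3 subunit genes in the table were all higher. *Eif2s2*, the beta subunit, had 5813, 5746, 5648 and 5616 normalized counts in EV MCECs and 9369, 9499, 10159 and 9742 in *Hdac3* KO MCECs, for a log2 fold change of 0.77 ± 0.03 (SE). *Eif2s3x*, the X-linked gamma subunit gene with the promoter match above, had 2109, 2041, 2106 and 2075 normalized counts in EV MCECs and 3386, 3124, 3352 and 3352 in *Hdac3* KO MCECs, and the log2 fold change was 0.67 ± 0.03 (SE). Of its 50-base stretches 34.6% also lie in a processed pseudogene. *Eif2s1*, the alpha subunit that the eIF2 kinases phosphorylate, had 3350, 3352, 3171 and 3341 normalized counts in EV MCECs and 4517, 4581, 4852 and 4887 in *Hdac3* KO MCECs, giving a log2 fold change of 0.51 ± 0.03 (SE). *Eif2a*, an alternative carrier unrelated to the eIF2 subunits, changed less, with a log2 fold change of 0.24 ± 0.03 (SE).

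eIF2B is the exchange factor that reloads eIF2 with GTP, and 4 of its 5 subunit genes were in the table, all higher. *Eif2b1* had 1029, 1142, 1113 and 1083 normalized counts in EV MCECs and 1648, 1591, 1712 and 1687 in *Hdac3* KO MCECs, for a log2 fold change of 0.60 ± 0.04 (SE). *Eif2b3* had 377, 381, 375 and 350 normalized counts in EV MCECs and 524, 542, 522 and 570 in *Hdac3* KO MCECs, and the log2 fold change was 0.54 ± 0.06 (SE). The subunits were not equal: *Eif2b4* followed with 0.41 ± 0.05 (SE), and *Eif2b5*, the catalytic subunit, had 0.16 ± 0.04 (SE), a call lost under library totals alone, with 0.04. The *Eif2b4* counts were 631, 604, 629 and 703 in EV MCECs and 805, 826, 915 and 880 in *Hdac3* KO MCECs.

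eIF3 is the large scaffold that binds the small ribosomal subunit. All 14 annotated eIF3 genes were in the table; 13 were higher and 1 lower, and the median of their log2 fold changes was 0.39. *Eif3c*, a core subunit, had 7390, 7614, 7429 and 7336 normalized counts in EV MCECs and 13263, 13162, 13174 and 13402 in *Hdac3* KO MCECs, giving a log2 fold change of 0.83 ± 0.02 (SE). *Eif3j1* had 1028, 958, 929 and 933 normalized counts in EV MCECs and 1704, 1641, 1742 and 1685 in *Hdac3* KO MCECs, and *Eif3j2* had 793, 787, 812 and 801 against 1293, 1420, 1439 and 1421. Their log2 fold changes of 0.82 ± 0.04 and 0.80 ± 0.04 (SE) are not separate measurements, since 91.8% of the 50-base stretches of *Eif3j2* also occur in other transcripts, mostly of *Eif3j1*. At the other end, *Eif3f* fell from 3285, 3329, 3395 and 3377 normalized counts in EV MCECs to 3086, 2849, 2860 and 3043 in *Hdac3* KO MCECs, for a log2 fold change of -0.18 ± 0.03 (SE). All 4 KO libraries were below the EV libraries. The remaining subunits were *Eif3d*, *Eif3b*, *Eif3g*, *Eif3a* and *Eif3e* with log2 fold changes of 0.58, 0.53, 0.52, 0.42 and 0.36, and *Eif3l*, *Eif3k*, *Eif3i*, *Eif3m* and *Eif3h* with 0.30, 0.28, 0.24, 0.22 and 0.20. Antisense overlap touches 37.2% of the 50-base stretches of *Eif3d*.

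Of the 9 cap-binding, scaffold and helicase genes of the eIF4 group 8 were higher and 1 lower. *Eif4e*, the cap-binding protein, had 2251, 2236, 2141 and 2220 normalized counts in EV MCECs and 3415, 3374, 3424 and 3490 in *Hdac3* KO MCECs, and the log2 fold change was 0.63 ± 0.03 (SE). The 3 scaffold genes of this group differed in direction. *Eif4g3* (chr4:137993022-138208508) had 660, 785, 726 and 727 normalized counts in EV MCECs and 504, 503, 496 and 436 in *Hdac3* KO MCECs, giving a log2 fold change of -0.58 ± 0.06 (SE). It was the lowest of all 78 members, and its KO libraries lay below every EV library. *Eif4g2*, which lacks the eIF4E-binding part of the family, had 19959, 20229, 19173 and 19080 normalized counts in EV MCECs and 27357, 28008, 28394 and 29367 in *Hdac3* KO MCECs, for a log2 fold change of 0.53 ± 0.03 (SE). *Eif4g1*, the main scaffold, had a log2 fold change of 0.43 ± 0.02 (SE) and 221.8 ± 4.95 FPKM in EV MCECs, against 4.74 ± 0.322 FPKM for *Eif4g3* (SD, n = 4). The helicase gene *Eif4a1* had a log2 fold change of 0.45, *Eif4h* one of 0.35, *Eif4a3* one of 0.30 and *Eif4e2* one of 0.20, which lost its call under library totals alone, with 0.08. Of the 50-base stretches, 28.4% of those of *Eif4a1* and 16.5% of those of *Eif4a3* also occur in other transcripts on the same strand, as do 20.3% for *Eif3h*, 19.2% for *Eif1* and 17.2% for *Eif3m*. *Eif4b* had 0.12 ± 0.02 (SE), and this turned to -0.002 when libraries were scaled by their totals alone.

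The 7 genes grouped with eIF1, eIF1A and eIF5 were all higher within a narrow range from 0.33 for *Eif1a* to 0.46 for *Eif1ad*. *Eif1ad* had 1661, 1547, 1662 and 1635 normalized counts in EV MCECs and 2252, 2300, 2181 and 2245 in *Hdac3* KO MCECs. *Eif5*, the GTPase activator of eIF2, had 6370, 6267, 6025 and 5938 normalized counts in EV MCECs and 8052, 8479, 8532 and 8486 in *Hdac3* KO MCECs, and the log2 fold change was 0.45 ± 0.03 (SE). *Eif6*, which keeps the large subunit from joining too early, had 3095, 3191, 3143 and 3188 normalized counts in EV MCECs and 4279, 3938, 4211 and 4321 in *Hdac3* KO MCECs, giving a log2 fold change of 0.41 ± 0.03 (SE). None of these genes was past 0.5, beside 15.1% of all genes. *Eif5a*, the factor that carries the amino acid hypusine, was among the most abundant members with 718.4 ± 14.8 FPKM in EV MCECs and 1001 ± 13.3 FPKM in *Hdac3* KO MCECs (SD, n = 4). Its normalized counts were 19397, 18932, 19375 and 19906 in EV MCECs and 29156, 28816, 29501 and 29841 in *Hdac3* KO MCECs, and its log2 fold change was 0.60 ± 0.02 (SE).

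**Figure D4:**
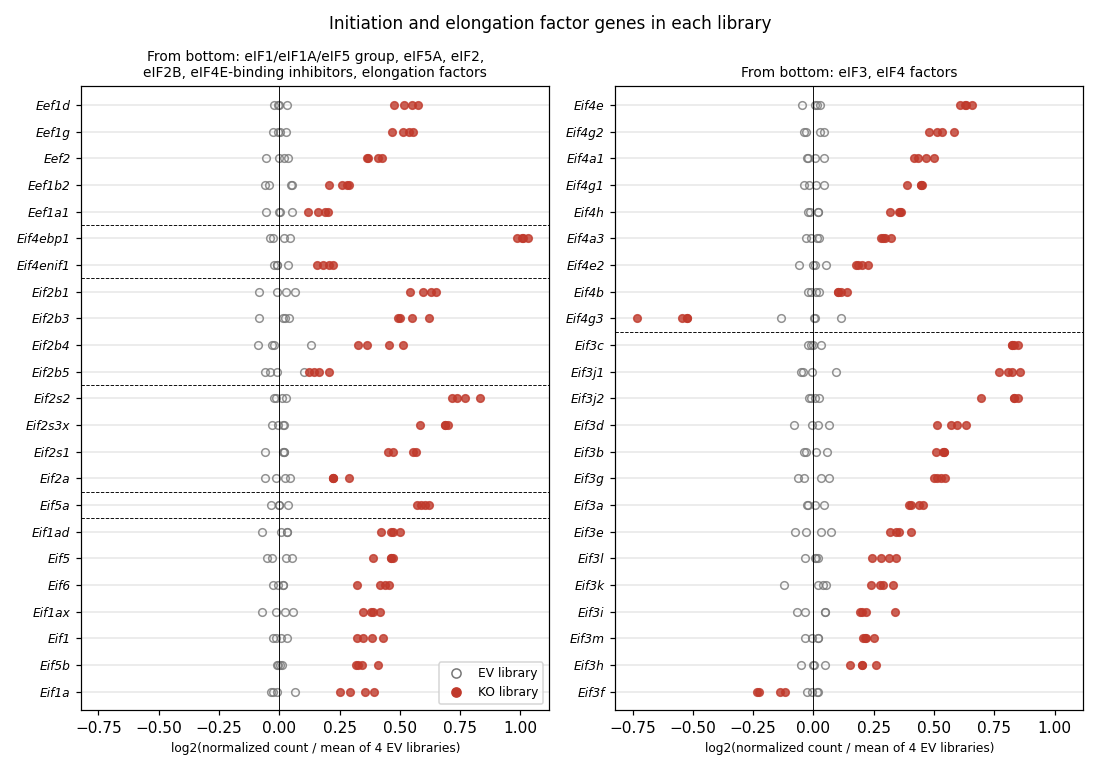
Log2 of the normalized count over the mean of the 4 EV libraries (x axis) for the 41 initiation and 5 elongation factor genes (y axis); dashed lines part the roles, open circles are EV and filled circles KO libraries. KO points lie to the right for 44 genes and to the left for *Eif3f* and *Eif4g3*, and *Eif4ebp1* lies farthest right.

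The 5 elongation factors were all higher, beside 47.1% of all genes, with a median log2 fold change of 0.39. *Eef1d*, a subunit of the exchange complex of eEF1A, had 5401, 5414, 5338 and 5539 normalized counts in EV MCECs and 7755, 7536, 7941 and 8073 in *Hdac3* KO MCECs, for a log2 fold change of 0.53 ± 0.03 (SE). *Eef1g*, of the same complex, had 25666, 25180, 25500 and 26162 normalized counts in EV MCECs and 36605, 35452, 37635 and 37200 in *Hdac3* KO MCECs, and the log2 fold change was 0.52 ± 0.02 (SE). Both were well separated between the groups. *Eef2*, which moves the ribosome by 1 codon, had 60119, 63256, 62326 and 64055 normalized counts in EV MCECs and 83755, 80653, 80238 and 82897 in *Hdac3* KO MCECs, giving a log2 fold change of 0.39 ± 0.02 (SE).

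*Eef1b2* had a log2 fold change of 0.26 ± 0.03 (SE). *Eef1a1*, which delivers charged tRNAs, was the most abundant member with 5490 ± 163 FPKM in EV and 5686 ± 138 FPKM in *Hdac3* KO MCECs (SD, n = 4), and its log2 fold change of 0.17 ± 0.03 (SE) lost its call under library totals alone, with 0.05. Shared sequence is large here: 44.2% of the 50-base stretches of *Eef1g* and 39.4% of those of *Eef1a1* also occur in other transcripts, mainly processed pseudogenes. The summed level of the 5 genes was 7768 ± 190.1 FPKM in EV and 8493 ± 170.6 FPKM in *Hdac3* KO MCECs (SD, n = 4), a ratio of 1.09, and without *Eef1a1* the ratio was 1.23.

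Genes around these members were described from lists of known function. Of 35 genes listed as ATF4 and its known targets 33 were in the table, and all 33 were higher, beside 47.1% of all genes. The log2 fold changes of the 33 had a median of 1.0, and 17 were past 1, beside 4.43% of all genes. *Atf4* itself had 5114, 5117, 5211 and 5240 normalized counts in EV MCECs and 10260, 10410, 10458 and 10305 in *Hdac3* KO MCECs, for a log2 fold change of 1.0 ± 0.03 (SE). Every KO library was far above every EV library. The largest changes were those of *Cth*, an enzyme of cysteine synthesis, with 2.35 ± 0.10 (SE), and of *Gdf15*, a stress hormone, with 2.05 ± 0.22 (SE). Both had few reads: *Cth* averaged 66.7 normalized counts in EV and 342.8 in *Hdac3* KO MCECs, and *Gdf15* 18.2 and 76.9. The pseudokinase gene *Trib3* had 1.97 ± 0.04 and *Asns* 0.91 ± 0.03 (SE).

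Of 10 genes in a list of eIF2 kinases, phosphatase subunits and *Gcn1l1*, 7 were in the table, with 4 higher and 3 lower. The 57.1% higher is near the whole table, with 47.1% higher and 49.6% lower. *Gcn1l1*, neither a kinase nor a phosphatase subunit, was among the 4 higher, with a log2 fold change of 0.41 ± 0.03 (SE). The kinase genes *Eif2ak2*, for the sensor of double-stranded RNA, and *Eif2ak4*, for the sensor of uncharged tRNA known as GCN2, had log2 fold changes of -0.55 ± 0.04 and -0.36 ± 0.06 (SE). *Eif2ak3*, for the sensor of the endoplasmic reticulum, had -0.21 ± 0.05 (SE). *Eif2ak1*, for the haem-regulated kinase, had 0.12 ± 0.04 (SE), with overlapping groups. The largest rise of the list was that of *Ppp1r15a*, the inducible phosphatase subunit, with 0.96 ± 0.05 (SE).

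Of 20 genes of mTOR signalling to translation 12 were in the table, 7 higher and 5 lower, and their median was 0.11 (log2 fold change). This is near the whole table, with 47.1% higher, 49.6% lower and a median of 0.06. *Larp1*, which binds mRNAs that mTOR controls, had 0.71 ± 0.03 (SE), and *Pdcd4*, an inhibitor of the eIF4A helicase, had -0.52 ± 0.05 (SE). A mixed list of 18 genes held termination, recycling and poly(A)-binding genes together with others, among them *Ddx3x*, *Dhx29*, *Abcf1*, *Gtpbp1* and *Gtpbp2*. Of the 18, 15 were in the table and all 15 were higher, beside 47.1% of all genes, with a median of 0.30. The largest change was that of the helicase gene *Ddx3x*, with 0.76 ± 0.03 (SE). The release factor gene *Etf1* had 0.74 ± 0.03 (SE), the recycling factor gene *Abce1* 0.68 ± 0.03 (SE), and the poly(A)-binding protein gene *Pabpc1* 0.65 ± 0.02 (SE).

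A mixed list of 33 genes held tRNA processing, tRNA export and aminoacylation-related genes together with genes that modify eEF2 (diphthamide) and eIF5A (hypusine). Of these 18 were in the table, 16 higher (beside 47.1% of all genes) and 2 not past the threshold, with a median log2 fold change of 0.43. Both that did not pass, *Dph5* and *Dph6*, are diphthamide genes, and *Dph2* and *Dohh* are the other protein-modifying genes of the 18. *Xpot*, which exports tRNAs from the nucleus, had 3057, 3000, 3077 and 2997 normalized counts in EV MCECs and 6000, 5883, 5726 and 5874 in *Hdac3* KO MCECs, and the log2 fold change was 0.95 ± 0.03 (SE). The RNase P subunit gene *Pop1* had 0.92 ± 0.04 (SE), and the tRNA methyltransferase gene *Nsun2* had 0.82 ± 0.03 (SE). Of 17 mitochondrial translation factors 8 were in the table, with 6 higher and 1 lower (*Mrrf*, the ribosome recycling factor). *Guf1* was not past the threshold, and the median of the 8 was 0.34. Over all genes 47.1% were higher and 49.6% lower. The mitochondrial elongation factor gene *Tufm* had 0.39 ± 0.03 (SE).

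**Figure D5:**
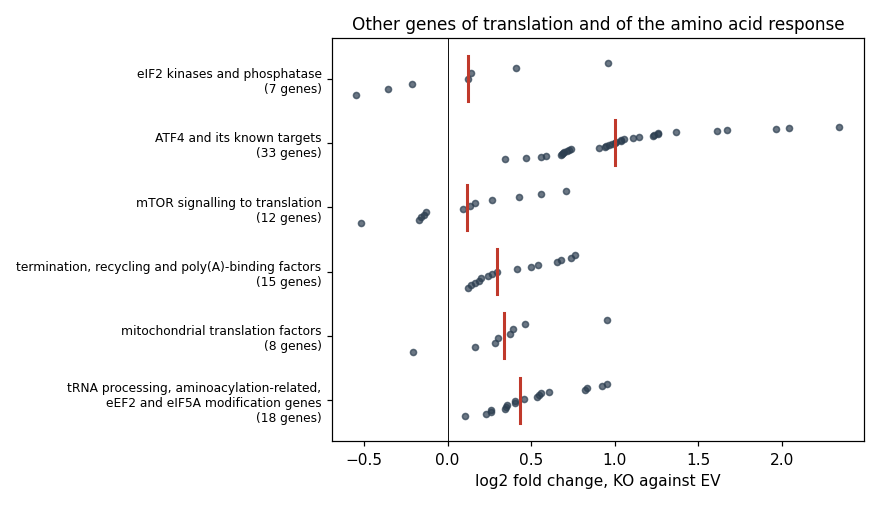
Log2 fold change of KO against EV (x axis) of each gene in 6 lists of related function (y axis, with the number of genes in the table); red bars are medians. All 33 genes of the ATF4 list lie right of 0 with a median of 1.0, while the eIF2 kinase list and the mTOR list lie on both sides.

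Reads shared with other genes bear on more members than those marked above. Over 5% of the 50-base stretches also lay in same-strand transcripts of other genes for 20 members, and in opposite-strand transcripts for 10. Beside those already named, the opposite-strand shares were 14.3% for *Eif5b*, 13.2% for *Eif1ad*, 15.1% for *Eif3j1*, 8.85% for *Fars2*, 7.28% for *Farsb*, 5.95% for *Hars* and 5.37% for *Eif2b4*. On the same strand they were 36.9% for *Eif3j1*, 10.2% for *Eif2s2*, 8.28% for *Eef1b2*, 7.25% for *Eif3c*, 7.15% for *Iars* and 7.1% for *Eef2*, and 5.61% to 6.02% for *Eef1d*, *Eif2s1*, *Eif3e* and *Eif4e*. Their part in the results was not tested.

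Scaling bears on how the smaller changes read. With library totals alone, without TMM factors, the median of all genes moved by -0.12 (log2), to -0.06. This scaling shifts all genes by about the same amount, so positions relative to the median of all genes stay where they are by construction: 0.60 for the cytosolic synthetases, 0.36 for the initiation factors and 0.34 for the elongation factors.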

How the data were processed

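Bulk RNA-Seq of 4 *Hdac3* KO and 4 EV MCEC libraries was used. The authors used tophat2 and bowtie2 with the mm10 genome, and the submitters' processing notes also name CASAVA and DESeq 1.6.3. For extracting the count matrix the methods name the lumi package, and for differential expression DESeq2 and the cufflinks suite. A program that assigned reads to genes, its annotation and its use of strand are not given in the sources used here. The deposited counts are whole reads without normalization. For the deposited FPKM values the authors divided each count by gene length and library total. The authors' p-values, adjusted p-values, fold changes and group means per gene describe their own comparison; only the largest deposited adjusted p-value, 0.05, was used, to see how the table had been selected. Tables that hold lower and higher genes separately repeat the same rows and were not used.

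Library totals were recovered from count, length and FPKM and multiplied by TMM factors (edgeR 4.0.16, limma 3.58.1, R 4.3.3). The test was edgeR's quasi-likelihood test on all 8278 genes, with Benjamini-Hochberg adjustment and a threshold of 0.01, with no low-count filter. A normalized count is the raw count over the relative size of its library. Standard errors are those of the fit, and fold changes are KO against EV. The common coefficient of variation was 2.82%. Precision from read numbers covers counting error only. Pairs of libraries of a group differed by 1.8 to 3.67 times the counting variance, so no library was a copy of another. On simulated data for this comparison with 8278 genes, edgeR recovered 99 of 100 genes changed by a log2 of 1 and 95 of 100 changed by 0.5, with 6 false calls, and DESeq2 recovered 97 and 93 with 2. The simulation gave every gene the common variation and changed only those genes, up and down in equal number. In the data 96.7% of genes passed, so these figures do not give the error rates there.

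Alternatives were DESeq2 1.42.0, its size factors, library totals without TMM, TMM on column sums, a filter of 10 counts in 4 libraries, protein-coding genes only, adjustment over 30000 tests, a replicate block, a loess on gene length, other thresholds and leaving out each library; a loess on GC content with length and a sum without *Lars2* were added after seeing the data. Promoters are RefSeq's and 50-base stretches come from GENCODE M21 transcripts, both on the mm10 build; gene coordinates are the deposited ones. The members and the gene lists were chosen with earlier results of these data known. The members named with every library are the 6 cytosolic and 3 mitochondrial synthetases of largest change, up to 3 of each other role, and those that moved against most of their role; of other lists, up to 5. *Dars*, the smallest cytosolic change, and *Lars2* were added after their values were seen. Python 3.11.15 with matplotlib 3.10.9 drew the figures.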

Additional observations from a re-analysis of the deposited data

Results flagged for a closer look

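Of 156 sets of 4 libraries (78 genes in each of the groups), 12 had 1 library far from the other 3, judged by its gap over the range of the set under Dixon's test; chance gives about 7.8. In EV MCECs, *Ears2* had 109.2 normalized counts in library 1 with the others from 123.3 to 125.9, and *Eif2s1* had 3171 in library 3 with the others from 3341 to 3352. In *Hdac3* KO MCECs, 4 of the values were in library 2: *Lars* at 6974, below the others at 7275 to 7321; *Eif2s3x* at 3124, below 3352 to 3386; *Wars2* at 257.1, above 215.6 to 222; and *Eif2a* at 2019, above 1930 to 1932. Library 1 was low for *Eif5* at 8052, with the others at 8479 to 8532, and for *Eif3j2* at 1293, with the others at 1420 to 1439. Library 3 was low for *Eif3b* at 20545, with the others at 20937 to 21004, and for *Eif4g1* at 30749, with the others at 31982 to 32127. Library 4 was high for *Eif3i* at 3835, with the others at 3474 to 3526, and low for *Eif4g3* at 436, with the others at 496.2 to 504.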

How the results depend on the processing

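Of the single-gene results under the alternatives, 1323 kept their direction and, where a test was run, their call. Another 84 corrected values moved by more than the spread of the KO libraries, 13 lost the call and 2 reversed. The loess corrections carry no test, so for them only direction and size were compared. The reversals were *Eif4b* at -0.0017 under library totals without TMM and *Vars2* at 0.036 under the loess on GC content and gene length. Library totals also ended the calls of *Dars* (0.03), *Rars2* (0.05), *Cars2* (0.26), *Eif2b5* (0.04), *Eif4e2* (0.08), *Eif4enif1* (0.07) and *Eef1a1* (0.05). *Rars2* also lost its call under adjustment over 30000 tests and without EV library 2 or 3 or KO library 1, 3 or 4. The cause was not tested.

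Library totals without TMM gave median log2 fold changes of 0.33 for all members, 0.53 for cytosolic and 0.14 for mitochondrial synthetases, 0.44 for scaffold proteins, 0.30 for initiation and 0.27 for elongation factors. The loess on gene length gave 0.51, 0.72, 0.51 and 0.44 for all members, cytosolic synthetases, initiation and elongation factors, and with GC content 0.50, 0.74, 0.47 and 0.51. For all members the DESeq2 test and DESeq2 size factors in edgeR both gave 0.46. The median of mitochondrial synthetases without *Lars2* was 0.17, and the log2 ratio of their summed FPKM was -0.0073 without it and 0.19 with it.

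With an absolute log2 fold change over 0.5, 33 members were higher and 1 lower; these were 13 and 0 cytosolic synthetases, 1 and 0 mitochondrial synthetases, 2 and 0 scaffold genes, 15 and 1 initiation factors, and 2 and 0 elongation factors. In reads scaled to the TMM-adjusted library size the log2 ratios of summed level were 0.71 for cytosolic and 0.31 for mitochondrial synthetases, 0.48 for scaffold proteins, 0.45 for initiation and 0.26 for elongation factors, with 0.56, 0.19, 0.37, 0.34 and 0.13 in FPKM.

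Leaving out each library gave medians of 0.44 to 0.47 for all members, 0.64 to 0.67 for cytosolic and 0.22 to 0.28 for mitochondrial synthetases, 0.52 to 0.60 for scaffold proteins, 0.40 to 0.43 for initiation and 0.37 to 0.41 for elongation factors, and 71 to 72 higher and 6 lower members. Libraries with the same replicate number did not deviate together (correlations from -0.04 to 0.01), and the replicate block gave 72 higher and 6 lower, with a median of 0.44, and changed no call of a member. The 9 mitochondrial synthetases other than *Lars2* had 121 to 534 normalized counts on average in EV MCECs and an SE of 0.05 to 0.10. Genes outside the table were not analysed.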
